A study of Mus musculus with 6 samples.

Results

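Solute carriers are membrane proteins that move nutrients, ions, metals and metabolites across the plasma membrane and the membranes of organelles. The 100 genes described here are the solute carrier genes with a clear signal in C2C12 mouse myoblasts arrested in suspension, out of 18193 genes represented on the arrays. They were chosen by symbol and by measured level: the symbol had to begin with Slc, a family number, the letter a and a member number, and at least 1 probe set had to reach a mean deposited intensity of 50 over all 6 arrays. Of 320 such symbols on the arrays, 217 stayed below that level and 3 (Slc16a1, Slc16a3 and Slc2a1) were left out by the rule. Families whose symbols carry another letter, such as Slc35b or Slco, are not covered. Among the 100 symbols, Slc9a3r1 names a scaffold protein that binds a sodium-proton exchanger, and Slc4a1ap names an adaptor protein, so neither encodes a transporter.

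The comparison was between stable pools of C2C12 cells transfected with PRDM2 shRNA and stable pools that carried GFP shRNA as the control. Each group had 3 arrays. C2C12 is a mouse myoblast line that can be held in reversible arrest or driven to form myotubes, and PRDM2 is a PR/SET domain zinc finger protein. All cells had been held for 48 hours in methylcellulose suspension with 20% fetal calf serum, which the labels describe as synchronization in G0. The samples are called biological replicates of a stable pool, and nothing says that they came from separate transfections, so the p-values measure the spread between these samples, which may in part be technical.

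Transport sets what a resting cell takes up and stores. Amino acid carriers feed protein synthesis and growth signalling, sodium-coupled phosphate carriers and cation-chloride cotransporters set phosphate supply and cell volume, and the SLC39 and SLC30 families move zinc into and out of the cytosol. Carriers of the SLC25 family sit mostly in the inner mitochondrial membrane and exchange phosphate, adenine nucleotides, cofactors and metabolites with the matrix. When myoblasts differentiate, several transport systems change with the new ionic and energetic needs of the myotube.

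Prdm2, the targeted gene, had intensities of 58.0, 51.5 and 28.98 on the knockdown arrays, against 86.2, 73.6 and 47.1 on the control arrays, and missed the threshold (log2 difference -0.51, limma adjusted p = 0.313). Its 3 knockdown values overlap the control values. The arrays also differed in quality. Control array 3 had a Gapdh 5' to 3' ratio of 0.0992, where the remaining arrays had 0.704 to 1.14. The Dap poly-A spike, RNA added during preparation, read 38.8 on knockdown array 3 and 39.9 on control array 3, and 126 to 254 elsewhere. For this reason, the difference within arrays 1 and 2 of each group, with the higher spike, and within array 3 of each group, where 1 array per group allows no test, is added for the genes that passed and for those where the values disagree most. The difference within array 3 sets control array 3, with the Gapdh ratio of 0.0992, against knockdown array 3, with 0.934. RNA quality and knockdown cannot be told apart in it. Median intensity was 10.6 to 12.1 per array, and between 55.1% and 58.2% of probe sets lay below 16.

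Differentiated muscle markers differed between the groups on the same arrays that give the solute carrier results. Of 11 such markers 10 rose, and their summed intensity was 9378 to 11405 on the knockdown arrays, against 300.2 to 583 on the control arrays. Of 7 myoblast markers 2 rose (Vcam1 and Itga7) and 1 fell (Myf5). In a bulk sample, a different share of cells of one type and a different amount of RNA per cell cannot be told apart. What part the muscle markers' change has in any solute carrier difference was not tested. Markers of other cell types gave 0 passing genes of 5 adipocyte, 5 macrophage and 5 endothelial genes, while 1 of 5 neural markers, Tubb3, fell. Their summed intensities on the knockdown and control arrays were 76.3 to 87.9 and 89.8 to 109 for adipocyte, 281 to 350.2 and 464 to 548 for macrophage, 16.9 to 20.7 and 20.5 to 31.7 for endothelial, and 37.4 to 44.4 and 65.2 to 85.8 for neural markers. The defining markers Adipoq, Ptprc, Pecam1 and Snap25 stayed at intensities below 4 on every array, but other genes on these lists did not. Cd14 had 226, 225 and 207 on the knockdown arrays, against 302, 341 and 383 on the control arrays. Csf1r had 58.0, 89.8 and 37.9 on the knockdown arrays, against 150.2, 86.9 and 103 on the control arrays. Pparg had 63.2, 61.9 and 58.6 in knockdown cells, against 84.4, 81.4 and 72.9 in control cells, and Tubb3 had 17.1, 14.6 and 17.6 in knockdown cells, against 36.8, 65.9 and 38.6 in control cells. Cd14, Csf1r and Pparg did not pass, and the part of any of these markers in the solute carrier results was not tested.

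Most expressed solute carrier genes differed little between knockdown and control cells, and a small number changed. Slc12a2, the sodium-potassium-chloride cotransporter NKCC1, Slc1a3, a glutamate and aspartate transporter, Slc5a3, a sodium-coupled myo-inositol transporter, and Slc25a32, a mitochondrial carrier of folate and FAD, rose. Slc41a2, a magnesium transporter, Slc20a1, the phosphate importer PiT1, and Slc39a6, the zinc importer ZIP6, fell. That is 7 of 100 genes past the test, 4 higher and 3 lower. Among all 18193 genes, 5.16% passed, 2.96% higher and 2.19% lower. Among the 7315 genes whose representing probe set averaged 50 or more, 7.7% passed, 4.35% higher and 3.35% lower, so the share among the solute carrier genes was near this background. The test was limma's moderated test on quantile-normalized log2(intensity + 16), with Benjamini-Hochberg adjustment over all 18193 genes and a threshold of 0.05. The added 16 damps the noise of dim probe sets and understates their fold changes. Differences below are knockdown minus control on this log2 scale, and intervals are 95% intervals from limma.

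The spread of the differences was also near that of other expressed genes. The 100 genes had a median log2 difference of -0.02, with quartiles of -0.24 and 0.20, against a median of 0.00 and quartiles of -0.21 and 0.22 for the 7315 genes at the same level. For 81 of the 100 the difference was smaller than 0.5 in either direction, and for 5 it was at least 1. An unadjusted limma p under 0.05 was found for 16 genes that were higher and 10 that were lower, where 23.5% of expressed genes had one. This balance depended on the scaling: the counts were 20 higher and 5 lower with no further normalization, and 21 higher and 4 lower with each array scaled to the same median. The same counts over all expressed genes were not made under these scalings. A tilt of solute carriers therefore cannot be told from one of all genes. After normalization, the 3 knockdown values lay wholly above the 3 control values for 15 genes, against 13.2% of expressed genes, and wholly below for 10 genes, against 11.7%.

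**Figure D1:**
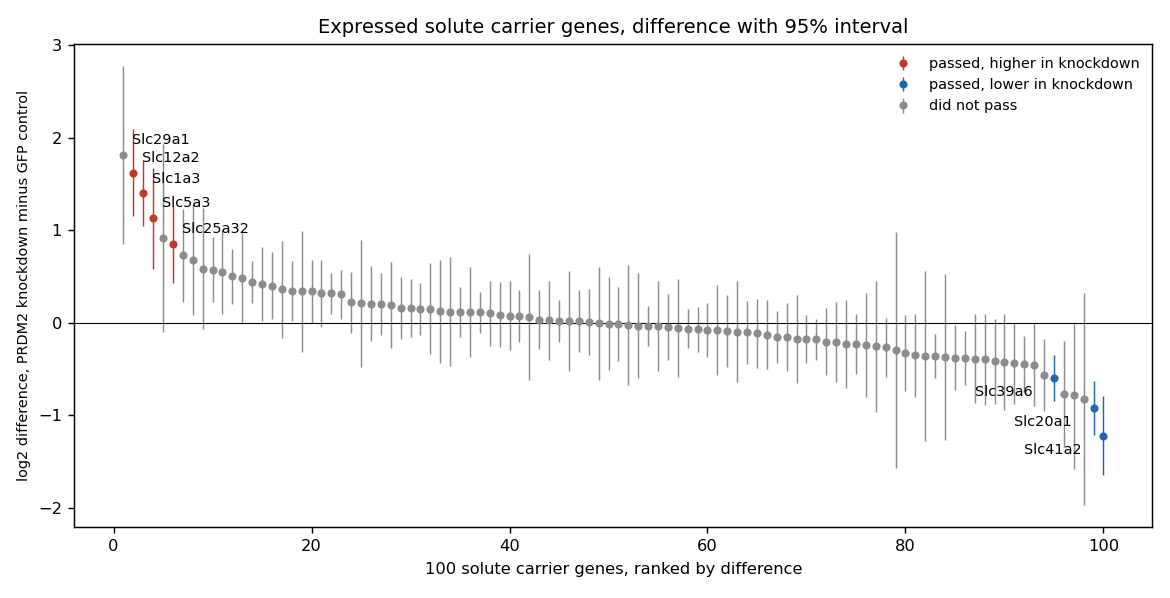
Log2 difference of each of the 100 expressed solute carrier genes, knockdown minus control, ranked from highest to lowest on the horizontal axis, with 95% limma intervals as bars. The 4 genes that rose lie between 0.85 and 1.62 and the 3 that fell between -0.60 and -1.22, while Slc29a1 has the highest value, 1.81, with a wide interval and did not pass.

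The level requirement admitted 7 genes with 1 group mean below 50, and 2 of them, Slc12a2 and Slc1a3, are among the genes that rose. Such a gene reached the level through the group where it was high, so its presence in the set was not independent of its difference. Of the 93 genes with both group means at 50 or more, 2 rose and 3 fell (5.38%). The share over all genes chosen by both group means was not counted. At the edge of the rule, Slc22a5, Slc25a14 and Slc44a4 were just inside with 50.2, 51.3 and 51.5, and Slc19a1, Slc25a33 and Slc29a4 just outside with 48.2, 47.4 and 47.4.

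Slc12a2 brings sodium, potassium and chloride into the cell together and takes part in volume regulation. Its intensities were 147, 202 and 114 on the knockdown arrays, against 35.9, 35.6 and 35.6 on the control arrays. The control values were nearly identical, and every knockdown array was more than 3 times as bright as any control array. The log2 difference was 1.62 (SE 0.199, 3.08-fold, limma adjusted p = 0.00626), with 1.85 within arrays 1 and 2 and 1.15 within array 3. It passed with any 1 array left out, at adjusted p-values of 0.00989 to 0.037. Both other Slc12a2 probe sets were dim, at 18.5 ± 14.6 and 19.9 ± 11.9 in knockdown cells and 3.69 ± 0.900 and 4.76 ± 3.20 in control cells (SD, n = 3 each), and were higher by 0.73 and 0.75 without passing.

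Slc1a3 clears glutamate and aspartate by sodium-coupled uptake and is best known from glia. It read 114, 93.4 and 131 on the knockdown arrays, against 24.7, 41.7 and 26.8 on the control arrays. The groups were well apart, and the lowest knockdown value was more than double the highest control value. It rose by 1.40 (SE 0.149, 2.63-fold, limma adjusted p = 0.00343), at 1.29 within arrays 1 and 2 and 1.61 within array 3, and it passed with any 1 array left out (0.00558 to 0.0268). With arrays 1 and 2 alone its adjusted p was 0.0508. Of its 6 probe sets 3 passed over all probe sets, where 3.1% of 34945 did, with log2 differences of 1.40, 1.43 and 1.14. The remaining 3 were below an intensity of 10 in both groups.

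Slc5a3 accumulates myo-inositol, an organic osmolyte and the precursor of phosphoinositides. Intensities were 928, 863 and 636 in knockdown cells, against 421, 446 and 209 in control cells. The groups did not overlap, and array 3 gave the lowest value of each group. The gene rose by 1.13 (SE 0.231, 2.19-fold, limma adjusted p = 0.0421), with 1.03 within arrays 1 and 2 and 1.32 within array 3. Its call was lost without knockdown array 1, 2 or 3, with adjusted p-values of 0.165, 0.14 and 0.0718, and without control array 1 or 3, with 0.0928 and 0.0501. Its other probe sets were dim, at 3.20 ± 0.692 and 22.95 ± 15.4 in knockdown cells and 3.37 ± 1.46 and 29.3 ± 38.8 in control cells, and differed by -0.01 and 0.03.

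Slc25a32 supplies mitochondria with folate and FAD. It had 112, 160.3 and 123 in knockdown cells, against 58.2, 82.4 and 46.5 in control cells. The knockdown values all exceeded the control values, with a gap smaller than the spread within the knockdown group. The rise was 0.85 (SE 0.177, 1.8-fold, limma adjusted p = 0.0449), with 0.80 within arrays 1 and 2 and 0.95 within array 3. The adjusted p was 0.0808, 0.109 and 0.126 without knockdown array 1, 2 or 3, 0.152 and 0.121 without control array 1 or 3, and 0.0541 with the spike batch as a block. A second probe set with signal, at 67.0 ± 16.2 in knockdown cells and 30.1 ± 8.76 in control cells, was higher by 0.81 without passing. With the adjustment over all probe sets in place of genes, the representing probe sets of Slc5a3 and Slc25a32 missed the threshold (limma adjusted p = 0.0669 and 0.0689).

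Slc41a2 carries magnesium and other divalent cations, and was measured by a single probe set. Values were 85.2, 93.3 and 52.5 on the knockdown arrays, against 197, 192 and 171 on the control arrays. The highest knockdown value was well below the lowest control value, and knockdown array 3 was the dimmest. The gene fell by 1.22 on the log2 scale (SE 0.179, limma adjusted p = 0.0119), with differences of -0.997 within arrays 1 and 2 and -1.68 within array 3. Without knockdown array 1 the adjusted p was 0.0503, and without control array 1 it was 0.0528.

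Slc20a1 imports phosphate with sodium and also serves as a receptor for gammaretroviruses. It read 577, 502 and 579 on the knockdown arrays, against 980.1, 1229.7 and 875 on the control arrays. All control arrays were brighter than all knockdown arrays, and the knockdown values lay close together. It fell by 0.92 on the log2 scale (SE 0.123, limma adjusted p = 0.00863), with -0.98 within arrays 1 and 2 and -0.80 within array 3, and it passed with any 1 array left out (0.0208 to 0.0473). The adjusted p was 0.0713 with arrays 1 and 2 alone, 0.0582 with an added 1 in place of 16, and 0.208 when the gene's probe sets were averaged. Another probe set, at 43.2 ± 22.6 in knockdown cells and 180 ± 215 in control cells, was lower by 1.15 with a spread too wide to pass. Its paralog Slc20a2, which imports phosphate as well, had 132, 109 and 101 in knockdown cells, against 85.8, 85.9 and 77.4 in control cells. All its knockdown values were above its control values, and the difference of 0.30 (95% interval 0.04 to 0.57) did not pass (limma adjusted p = 0.242). A test of the difference between these paralogs was not made.

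Slc39a6 moves zinc into the cytosol. Its intensities were 508, 537 and 464 on the knockdown arrays, against 818, 712 and 664 on the control arrays. The groups were apart by a gap smaller than the range of the control arrays. The fall was 0.60 on the log2 scale (SE 0.106, limma adjusted p = 0.0253), with differences of -0.53 within arrays 1 and 2 and -0.73 within array 3. The call was lost without knockdown array 1, 2 or 3 (0.111, 0.0611 and 0.0943) and without control array 1 or 3 (0.105 and 0.0725). Its 3 other probe sets were dim and lower by 0.73, 0.62 and 0.20 without passing.

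**Figure D2:**
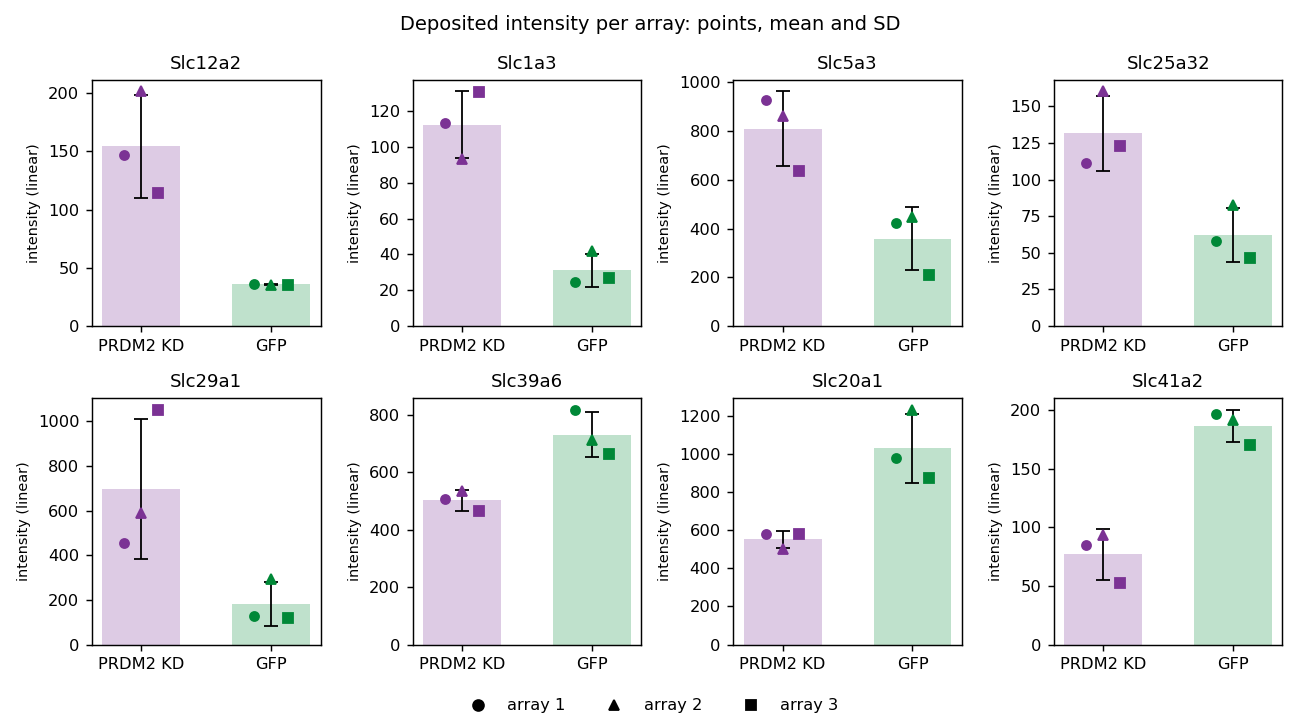
Deposited intensity on a linear scale for the 7 genes that passed and for Slc29a1, with the knockdown arrays left of the control arrays in each panel. Points are arrays 1 to 3, bars are means and whiskers are SD (n = 3 each), and in each of the 8 panels the points of the groups do not overlap.

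Promoter sequences of the changed genes are shown because these are the stretches on which regulators of the genes could be sought. RefSeq windows of GRCm38.p6, from 250 bases before to 50 bases after a listed start, were at hand for 77 of the 100 genes. Of the 7 that passed, 4 are shown, each with the first window listed for it (Slc20a1 has 2). Capitals mark matches on either strand to CAGCTG, the E-box favoured by myogenic factors, CACGTG, the E-box of the MYC and USF factors, GGGCGG, the GC box, TATAAA, and TGATGNAA, part of the amino acid response element. The windows are Slc1a3 at chr15:8710758-8711057 on the minus strand, Slc5a3 at chr16:92058072-92058371 on the plus strand, Slc20a1 at chr2:129198523-129198822 on the plus strand, and Slc41a2 at chr10:83337768-83338067 on the minus strand.
Slc1a3: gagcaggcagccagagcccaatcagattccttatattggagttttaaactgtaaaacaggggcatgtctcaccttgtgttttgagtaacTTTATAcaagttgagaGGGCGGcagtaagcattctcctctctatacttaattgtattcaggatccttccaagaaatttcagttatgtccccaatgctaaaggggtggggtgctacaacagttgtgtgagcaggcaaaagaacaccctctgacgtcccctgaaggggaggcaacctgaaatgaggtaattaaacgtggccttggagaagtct
Slc5a3: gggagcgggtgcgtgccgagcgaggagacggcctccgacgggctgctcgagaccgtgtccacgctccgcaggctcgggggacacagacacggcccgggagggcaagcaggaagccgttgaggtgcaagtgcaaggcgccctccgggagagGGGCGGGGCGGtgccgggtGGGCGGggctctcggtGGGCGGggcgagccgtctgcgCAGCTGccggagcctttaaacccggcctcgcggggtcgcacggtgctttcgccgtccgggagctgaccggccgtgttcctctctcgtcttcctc
Slc20a1: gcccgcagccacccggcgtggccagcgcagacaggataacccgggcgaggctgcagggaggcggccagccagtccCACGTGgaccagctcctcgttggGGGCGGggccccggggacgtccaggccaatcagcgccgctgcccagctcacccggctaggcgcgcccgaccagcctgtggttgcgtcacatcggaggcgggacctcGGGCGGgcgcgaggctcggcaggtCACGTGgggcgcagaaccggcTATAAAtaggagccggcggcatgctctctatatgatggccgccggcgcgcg
Slc41a2: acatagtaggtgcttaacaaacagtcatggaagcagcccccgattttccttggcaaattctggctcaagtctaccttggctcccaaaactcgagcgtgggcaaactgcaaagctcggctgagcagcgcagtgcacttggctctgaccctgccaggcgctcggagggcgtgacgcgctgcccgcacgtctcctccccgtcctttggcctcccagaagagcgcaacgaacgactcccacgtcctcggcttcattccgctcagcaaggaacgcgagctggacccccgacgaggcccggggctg

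The windows differ in composition. G and C made up 45.3% of the Slc1a3 window and 73.3%, 73% and 61.7% of those of Slc5a3, Slc20a1 and Slc41a2. Slc5a3 held a CAGCTG match beginning 44 bases before its listed start and 4 GC boxes, Slc20a1 held 2 CACGTG matches, 2 GC boxes and a TATAAA match beginning 1 base before its listed start, and the Slc41a2 window held none of the 5 motifs. Slc1a3 had 1 GC box and 1 TATAAA match on the opposite strand. GGGCGG occurred in 76.6% of the 77 solute carrier windows, in 69.4% of 5975 windows of genes at the same level and in 35.9% of all 27025 windows. For CAGCTG these shares were 14.3%, 13.8% and 16.1%, in the same order. For CACGTG they were 12.99%, 10.9% and 7.24%, for TATAAA they were 5.19%, 6.95% and 14.2%, and for TGATGNAA they were 3.90%, 2.11% and 4.06%. These are matches of letters, with no measurement of binding.

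Amino acid transporters numbered 16, of which 1 rose (Slc1a3), 0 fell and 15 did not pass, with a median log2 difference of -0.06. The system A and N family SLC38, which takes up glutamine, alanine and other neutral amino acids, had 5 members. With their representing probe sets all had differences below 0 (median -0.36) and none passed, but the sign of Slc38a10 was not stable, as given below. Slc38a1, a plasma membrane glutamine carrier, had 156, 103 and 98.6 in knockdown cells, against 199.54, 177 and 136 in control cells. Knockdown array 1 lay above control array 3 as deposited, and the groups did not overlap after normalization. The difference was -0.57 (95% interval -0.96 to -0.18) and the adjusted p of limma was 0.131. Its second probe set did pass over all probe sets, at 33.6 ± 1.53 in knockdown cells and 84.2 ± 23.3 in control cells, a fall of 1.05 (limma adjusted p = 0.0127). It was the 1 gene of the 93 that did not pass for which another probe set did.

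Slc38a2, the amino acid carrier SNAT2 that cells raise when amino acids run short, was bright and did not pass. It had 1422, 1375 and 1199.9 in knockdown cells, against 1527, 1436 and 1159.9 in control cells. For this representing probe set, the interval of -0.28 to 0.15 around -0.07 does not reach a 1.5-fold change in either direction. A second Slc38a2 probe set with signal had means of 247 in knockdown cells and 312 in control cells. It differed by -0.40 (SE 0.186) without passing (limma adjusted p = 0.459 over all probe sets). The narrow interval therefore bounds the representing probe set and not the gene. The lysosomal glutamine carrier Slc38a7 differed by -0.36 without overlap between the groups, at 68.1, 57.0 and 65.2 in knockdown cells, against 78.0, 93.1 and 70.9 in control cells, and did not pass (limma adjusted p = 0.115). Slc38a6 and Slc38a10 differed by -0.44 and -0.06.

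The large neutral amino acid exchanger is a dimer of Slc3a2, the CD98 heavy chain, and a light chain such as Slc7a5. Slc3a2 had 650.2, 655 and 621 in knockdown cells, against 711, 636 and 534 in control cells, with a difference of -0.04 (-0.25 to 0.18). Slc7a5 had 163, 107 and 145 in knockdown cells, against 97.6, 167 and 92.1 in control cells, with 0.12 (-0.37 to 0.60). The groups overlapped for both. The arginine and lysine importer Slc7a1 differed by -0.03, and its array 3 values, at 68.3 in knockdown and 57.8 in control cells, were the lowest of both groups.

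Several other members of this group varied widely between arrays and did not pass. Slc6a6, which imports taurine, had 319, 289 and 602 in knockdown cells, against 398, 1396 and 498 in control cells. Control array 2 stood far above the rest, and the difference of -0.83 carried an interval of -1.97 to 0.32. Slc1a4, a carrier of serine, alanine and cysteine, had 166, 134 and 103 in knockdown cells, against 240.5, 143 and 316 in control cells, with overlapping groups and a difference of -0.79 (-1.58 to 0.01). Slc6a14, a broad neutral and cationic amino acid transporter, read 149, 74.3 and 154 on the knockdown arrays, against 109, 56.5 and 21.6 on the control arrays, and its difference was 0.36 within arrays 1 and 2 and 2.04 within array 3. Slc36a4, a proton-assisted amino acid transporter, was higher without overlap, at 126, 115 and 89.6 in knockdown cells, against 81.7, 79.8 and 41.6 in control cells, without passing (a difference of 0.55, limma adjusted p = 0.217). The creatine transporter Slc6a8, the glycine transporter Slc6a9 and Slc6a17 differed by -0.21, 0.02 and -0.38.

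A list of 20 genes of the amino acid response, the ATF4 programme that raises several of these transporters, was read beside them. Of 19 measured, 1 rose and 0 fell, with a median of 0.07. That is 5.26%, beside 5.16% of all genes and 7.7% of those at a level of 50 or more, where all 19 lay. The one that passed was Atf5, a transcription factor of the stress response, at 366, 277 and 419.5 in knockdown cells, against 179, 158 and 159.5 in control cells (log2 difference 0.93, limma adjusted p = 0.0259). Atf4 itself differed by 0.19 and Asns, asparagine synthetase, by -0.00, both without passing.

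Transporters of sugars, polyols and monocarboxylates numbered 8, of which 1 rose (Slc5a3), 0 fell and 7 did not pass, with a median of 0.09. Slc2a3, the high-affinity glucose transporter GLUT3, had 388, 456 and 251 in knockdown cells, against 219, 191 and 177 in control cells. The groups did not overlap, and knockdown array 3 stood below the other knockdown arrays. Its difference of 0.73 (0.22 to 1.23) did not pass with all arrays (limma adjusted p = 0.132) and passed without knockdown array 3 (0.0264). The gene passed in 2 of the 19 alternatives described below, and its limma adjusted p reached 0.36 in the others. A second Slc2a3 probe set with signal was higher by 0.75 and did not pass. Slc50a1, a sugar transporter of the SWEET family, was higher without overlap, at 214, 150.4 and 175 in knockdown cells, against 120.1, 116 and 104 in control cells (log2 difference 0.50, limma adjusted p = 0.0816). Slc16a11, a monocarboxylate transporter family member, had 848, 670.4 and 938 in knockdown cells, against 500.5, 1068 and 745 in control cells, with wide overlap (log2 difference 0.06). Slc2a8, Slc37a3, Slc37a4 and Slc45a4 differed by -0.01, -0.08, 0.12 and -0.16. Slc37a4 is the glucose-6-phosphate carrier of the endoplasmic reticulum.

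**Figure D3:**
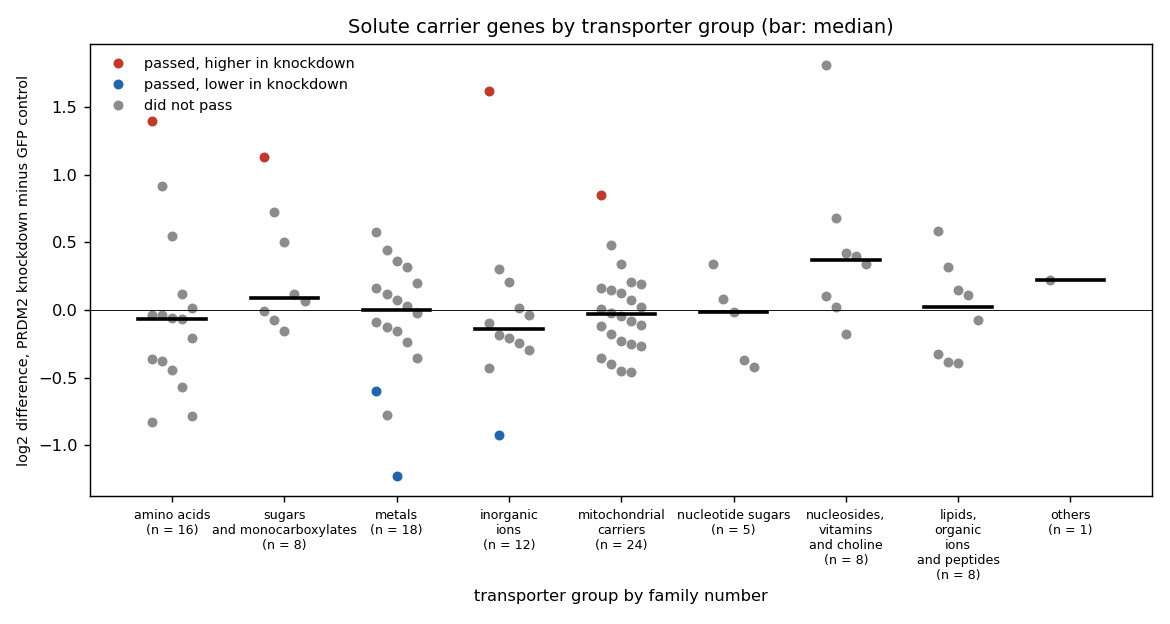
Log2 differences, knockdown minus control, of the 100 genes in 9 groups set by family number, with 1 point per gene and a black bar at each group's median. Genes that passed are coloured and occur in 5 of the groups, and the group medians run from -0.14 to 0.37.

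Metal transporters numbered 18, of which 0 rose, 2 fell (Slc41a2 and Slc39a6) and 16 did not pass, with a median of 0.00. Zinc importers of the SLC39 family numbered 8, with a median of -0.09, and zinc exporters of the SLC30 family numbered 5, with a median of 0.20. The exporters' median was 0.34 within arrays 1 and 2 and -0.09 within array 3, and the importers' was -0.05 and -0.22. The whole metal group's median changed sign as well, at 0.03 and -0.13. Slc39a10, the importer ZIP10 and the closest relative of Slc39a6, had 179, 174 and 135 in knockdown cells, against 405, 293 and 166 in control cells. Knockdown arrays 1 and 2 lay above control array 3 as deposited, and the groups did not overlap after normalization. The difference was -0.78 (-1.35 to -0.20, limma adjusted p = 0.16), and without control array 3 it passed (0.0467). Slc39a10 passed in 3 of the 19 alternatives described below, and its limma adjusted p reached 0.632 in the others. Slc30a7, which loads zinc into the Golgi, was higher without overlap, at 143, 126 and 137 in knockdown cells, against 101, 91.6 and 75.9 in control cells, just short of the threshold (log2 difference 0.44, limma adjusted p = 0.0532). Slc30a6, Slc30a5, Slc30a9 and Slc30a4 differed by 0.32, 0.20, -0.09 and -0.35.

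The remaining zinc importers did not pass. Slc39a1 differed by -0.02, Slc39a7, which releases zinc from the endoplasmic reticulum, by 0.12, Slc39a9 by 0.03, Slc39a11 by -0.16, Slc39a13 by -0.23 and Slc39a14, which also carries iron, by 0.16. Metallothioneins, which bind cytosolic zinc and are raised by it, were read beside them. Mt1 fell, at 2279.8, 2299.6 and 1798 in knockdown cells, against 3402, 3484 and 2895 in control cells (log2 difference -0.67, limma adjusted p = 0.0165). Mt2 had 1659, 1694 and 913 in knockdown cells, against 2455, 2373 and 1633 in control cells, without passing (log2 difference -0.68, limma adjusted p = 0.193).

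Iron, haem and copper carriers did not pass. Slc48a1, which moves haem out of endosomes, had 237, 189 and 222 in knockdown cells, against 124, 173 and 103 in control cells, with every knockdown value above every control value and a difference of 0.57 (0.23 to 0.92, limma adjusted p = 0.0883). Slc40a1, the iron exporter ferroportin, had 256, 252 and 142 in knockdown cells, against 173, 149.7 and 126 in control cells, and knockdown array 3 lay among the control values (log2 difference 0.36). Tfrc, the transferrin receptor that brings iron into cells, rose, at 248, 249.98 and 206 in knockdown cells, against 76.7, 108 and 89.4 in control cells (log2 difference 1.13, limma adjusted p = 0.00698). The copper importer Slc31a1 differed by -0.13 and the magnesium transporter Slc41a1 by 0.08, with intervals of -0.50 to 0.24 and -0.30 to 0.45.

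The inorganic ion families held 12 genes, 10 of them transporters besides the scaffold gene Slc9a3r1 and the adaptor gene Slc4a1ap. Of the 10 transporters 1 rose (Slc12a2), 1 fell (Slc20a1) and 8 did not pass, with a median of -0.14, and of all 12 genes the median was -0.14 too. The potassium-chloride cotransporters Slc12a4 and Slc12a7, which carry chloride out of cells, differed by -0.21 (-0.57 to 0.16) and -0.04 (-0.53 to 0.45). Slc12a4 had 109.7, 70.6 and 101 in knockdown cells, against 94.4, 113 and 96.2 in control cells, with overlapping groups. Slc12a8 separated the arrays by number, not by group, at 57.9, 84.5 and 212 in knockdown cells, against 90.5, 85.8 and 223 in control cells. Array 3 of both groups was far above the other 4 arrays, and its differences were -0.28 within arrays 1 and 2 and -0.33 within array 3. In all, 11 of the 100 genes had both array 3 values above or below all 4 others, against 15.5% of genes at the same level.

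Bicarbonate and anion transporters did not pass. The chloride-bicarbonate exchanger Slc4a2 differed by -0.24, the sodium-coupled bicarbonate transporter Slc4a8 by 0.20, Slc4a11 by -0.18 and the sulfate transporter Slc26a2 by -0.10. The scaffold gene Slc9a3r1 had 65.2, 44.9 and 26.9 in knockdown cells, against 71.6, 61.7 and 50.7 in control cells, with a difference of -0.43, and the adaptor gene Slc4a1ap differed by 0.02. The sodium pump and the kinases that act on these carriers were read beside them. Atp1b1, a beta subunit of the sodium pump, fell, at 135, 156 and 200.01 in knockdown cells, against 523, 857 and 457 in control cells (log2 difference -1.84, limma adjusted p = 0.00516). Atp1b3, another beta subunit, was higher without overlap and did not pass (log2 difference 0.54), and the chloride-sensing kinase Wnk1 and its effectors Stk39 and Oxsr1 differed by -0.28, -0.23 and 0.29 without passing.

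Of the list of 30 partners and other transporters, 27 were measured, 3 rose and 2 fell, with a median of 0.14. That is 18.5% of the measured genes, beside 5.16% of all genes and 7.7% of those at a level of 50 or more. The list was chosen by hand with earlier results of these data known, and some of its genes averaged below 50. No excess can therefore be read from this share. Besides Tfrc, Atp1b1 and Mt1, these were Emb, embigin, a chaperone of monocarboxylate transporters, which had 505, 782 and 721 in knockdown cells, against 138, 218 and 109.7 in control cells (log2 difference 1.95, limma adjusted p = 0.00674), and Arrdc3, an arrestin-like adaptor of membrane proteins, which had 545, 616 and 527 in knockdown cells, against 391, 382 and 313 in control cells (log2 difference 0.54, limma adjusted p = 0.0274). Bsg, basigin, the other such chaperone, read 1681, 1897 and 1412 on the knockdown arrays, against 2098, 2727 and 461 on the control arrays, and did not pass. Its value on control array 3, which had the low Gapdh ratio, was far below the other 5.

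Mitochondrial carriers formed the largest group, with 24 genes, of which 1 rose (Slc25a32), 0 fell and 23 did not pass. Their median was -0.03 (-0.09 within arrays 1 and 2 and 0.12 within array 3), and all but Slc25a32 differed by less than 0.5 in either direction. The phosphate carrier Slc25a3 had 1751, 1586 and 1871 in knockdown cells, against 1524, 2040.0 and 1455 in control cells, with a difference of 0.01 (-0.35 to 0.36). Slc25a4, the adenine nucleotide translocator of heart and skeletal muscle, had 1520.1, 1697 and 1683 in knockdown cells, against 1463, 1638 and 1435 in control cells, with 0.07 (-0.21 to 0.36). Slc25a5, the translocator of proliferating cells, had 754, 890.2 and 802 in knockdown cells, against 683, 825 and 628 in control cells, with 0.15 (-0.13 to 0.43). The intervals of these 3 genes hold 0 and reach no further than 0.43 in either direction. Slc25a5 and Slc25a4 are close paralogs, and several of their probe sets carry the x suffix of Affymetrix for sequence shared with other transcripts.

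Among the carriers of fuel and redox metabolites, several were uneven between arrays. Slc25a20, which brings acylcarnitines into the matrix, had 114, 61.4 and 81.0 in knockdown cells, against 50.9, 47.7 and 56.3 in control cells (log2 difference 0.48, limma adjusted p = 0.331). After normalization knockdown array 2 overlapped the control range. Slc25a1, the citrate carrier, had 161, 144 and 160.1 in knockdown cells, against 218, 274 and 88.3 in control cells, and its difference was -0.64 within arrays 1 and 2 and 0.52 within array 3. For Slc25a30 these values were -0.94 and 0.80. The malate and oxoglutarate carriers Slc25a10 and Slc25a11 and the aspartate-glutamate carrier Slc25a12 differed by -0.27, 0.12 and 0.02.

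The lower end of the group held Slc25a29, a carrier of basic amino acids, Slc25a40, linked to mitochondrial glutathione, and Slc25a14, an uncoupling protein relative. They differed by -0.46, -0.45 and -0.40 without passing. Slc25a40 had 51.0, 43.7 and 36.9 in knockdown cells, against 68.2, 58.2 and 59.3 in control cells, with no overlap. Its relative Slc25a39, which carries glutathione into mitochondria, differed by 0.16 with an interval of -0.17 to 0.50. The iron importers of mitochondria, Slc25a37 and Slc25a28, differed by 0.21 and -0.08. The NAD carrier Slc25a51, the pyrimidine nucleotide carrier Slc25a36 and the calcium-regulated ATP carrier Slc25a24 differed by -0.18, -0.02 and -0.23. Slc25a17, Slc25a27, Slc25a44, Slc25a45 and Slc25a46 differed by 0.19, -0.12, -0.05, 0.34 and -0.11.

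Carriers of nucleosides, vitamins, choline and related solutes numbered 8, of which 0 passed. Of the 8, 7 had differences above 0, where 3650 of the 7315 genes at the same level did. Their median was 0.37 (0.31 within arrays 1 and 2 and 0.21 within array 3), and a rise of the group was not tested. Slc29a1, the nucleoside transporter ENT1, had the highest difference of all 100 genes. Its intensities were 454, 588 and 1051 on the knockdown arrays, against 129, 295 and 120.4 on the control arrays. The groups did not overlap, but both were spread over more than a doubling. The difference was 1.81 (SE 0.404, 95% interval 0.85 to 2.78), with 1.31 within arrays 1 and 2 and 2.81 within array 3, and it missed the threshold (limma adjusted p = 0.0568). It passed in 6 of the 19 alternatives described below, among them without control array 2 (0.0312) and with limma's intensity trend in the variance (0.00765). In the others its limma adjusted p reached 0.268. Slc29a3, the lysosomal relative of Slc29a1, had 93.8, 64.5 and 93.5 in knockdown cells, against 63.0, 57.9 and 53.8 in control cells (log2 difference 0.34, limma adjusted p = 0.322).

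Choline transporter-like genes of the SLC44 family all had differences above 0. Slc44a2 had 1139, 651 and 682 in knockdown cells, against 419.6, 447 and 535 in control cells, a difference of 0.68 (0.08 to 1.28) that did not pass (limma adjusted p = 0.247). Its groups were apart as deposited and overlapped after normalization. A second probe set was higher by 1.13, at 259 ± 54.6 in knockdown cells and 105 ± 43.4 in control cells, with a limma adjusted p of 0.0678 over all probe sets. Slc44a1 and Slc44a4 differed by 0.10 and 0.42. A second probe set of Slc44a1 was higher by 0.93, also without passing. Slc49a4 was higher without overlap, at 143, 125 and 181 in knockdown cells, against 111, 94.9 and 98.4 in control cells (log2 difference 0.40, limma adjusted p = 0.265). The thiamine transporter Slc19a2 and the vitamin C transporter Slc23a2 differed by 0.02 and -0.18.

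Nucleotide sugar and Golgi or endoplasmic reticulum carriers numbered 5, of which 0 passed, with a median of -0.01 (0.11 within arrays 1 and 2 and -0.17 within array 3). They supply the lumen with donors for glycosylation or acetylation. Slc35a3, a carrier of UDP-N-acetylglucosamine, had 91.1, 75.6 and 68.4 in knockdown cells, against 116, 139 and 65.4 in control cells (log2 difference -0.42). Slc35a2, a UDP-galactose carrier, had 229.9, 91.1 and 82.7 in knockdown cells, against 157, 115 and 186 in control cells, with knockdown array 1 apart from the other knockdown arrays (log2 difference -0.37). Slc35a1, the CMP-sialic acid carrier, Slc35a4, and Slc33a1, an acetyl-CoA transporter, differed by 0.08, -0.01 and 0.34.

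Carriers of lipids, organic ions and peptides numbered 8, of which 0 passed, with a median of 0.02 (0.04 within arrays 1 and 2 and -0.11 within array 3). Slc22a5, which imports carnitine, was higher without overlap, at 60.5, 61.1 and 54.9 in knockdown cells, against 40.2, 45.5 and 39.3 in control cells (log2 difference 0.32, limma adjusted p = 0.134). Slc22a23 was lower without overlap, at 142, 131 and 133 in knockdown cells, against 154, 211 and 146 in control cells (log2 difference -0.38, limma adjusted p = 0.176). Slc17a5, the lysosomal sialic acid exporter, had 127, 83.2 and 80.0 in knockdown cells, against 42.7, 95.6 and 35.9 in control cells (log2 difference 0.59), with control array 2 above 2 of the knockdown arrays. The fatty acid transport proteins Slc27a1 and Slc27a4 differed by 0.15 and -0.39. Slc10a3, Slc15a4, a lysosomal peptide and histidine carrier, and Slc22a15 differed by 0.11, -0.32 and -0.07. Slc66a2, the only gene outside these groups, differed by 0.22 (limma adjusted p = 0.564).

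**Figure D4:**
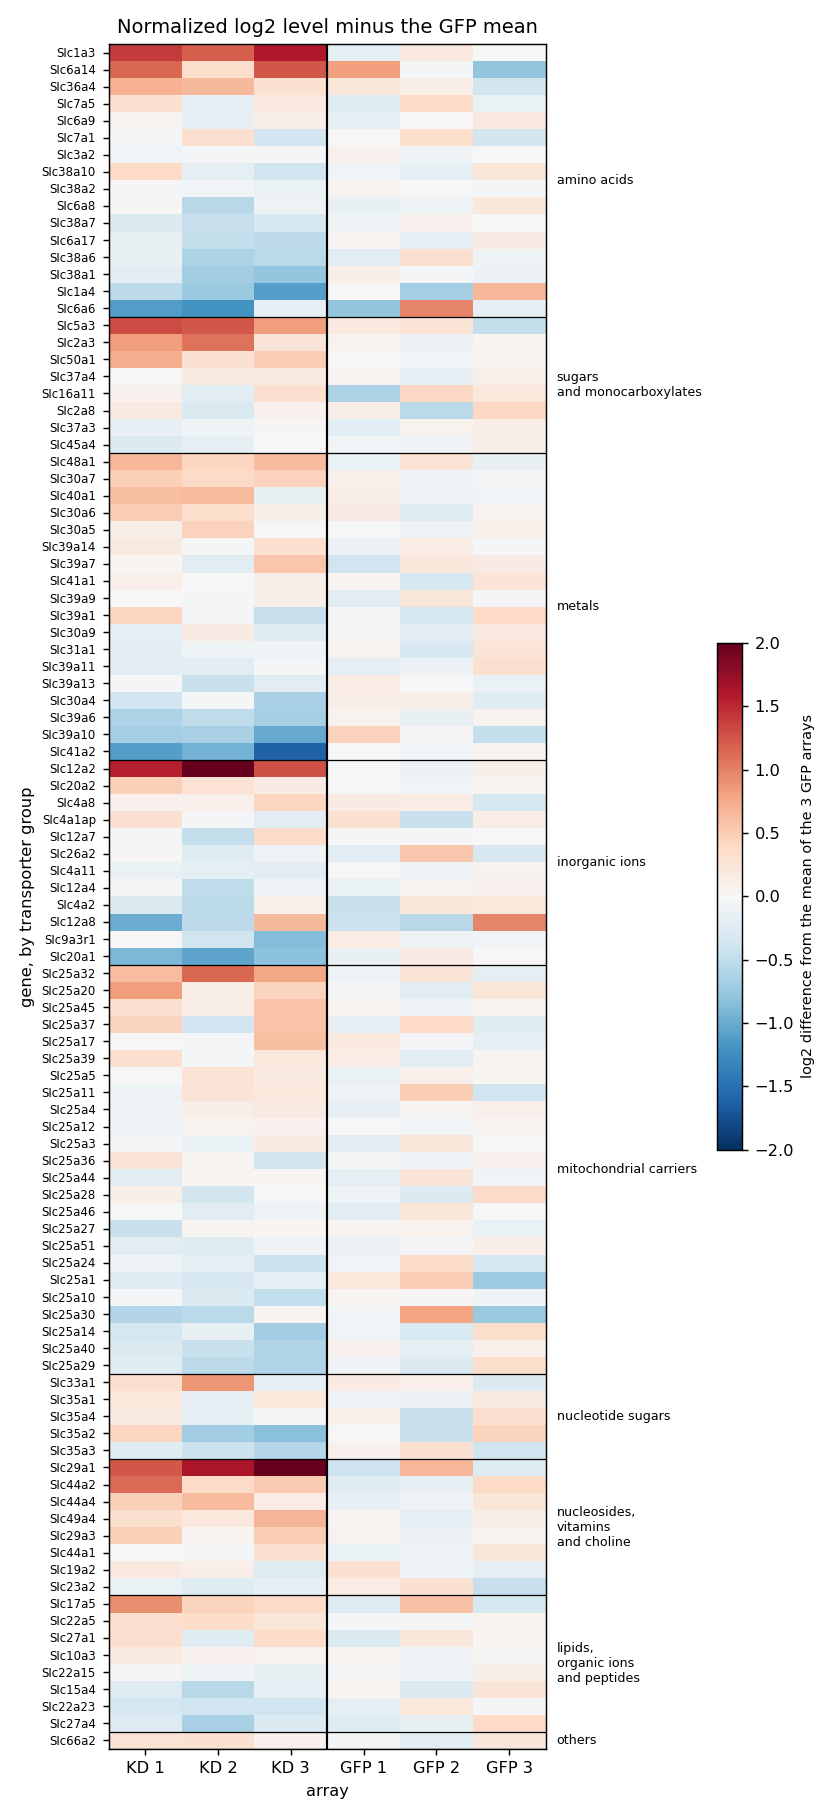
Normalized log2 level of each of the 100 genes on each array, minus the mean of the 3 control arrays, with knockdown arrays left of control arrays and genes sorted by difference within each group. Slc12a2 and Slc1a3 are red and Slc41a2 is blue on all 3 knockdown arrays, and the colour scale ends at -2 and 2.

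Probe sets of the same gene mostly pointed the same way where they were bright enough to compare. The 100 genes had 236 probe sets, and 66 genes had more than 1. Of the 136 probe sets that did not represent their gene, 36 averaged 50 or more, and 29 of these 36 had the sign of the representing probe set. The 7 with the other sign belonged to Slc25a46, Slc25a51, Slc35a2, Slc35a4 and Slc38a10, each of which did not pass.

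The difference changed sign between arrays 1 and 2 on the one hand and array 3 on the other for 32 of the 100 genes, none of which passed. A gene that changes sign is unlikely to pass, since the test used these same arrays. For 12 of the 32 the difference reached 0.5 in size on at least 1 side. Besides Slc25a1 and Slc25a30 above, 3 of these carry zinc or iron: Slc39a1 (0.40 within arrays 1 and 2 and -0.86 within array 3), Slc40a1 (0.59 and -0.10) and Slc25a37 (-0.09 and 0.81). In the same order, Slc6a6 had -1.25 and 0.02, Slc38a10 had 0.23 and -0.64, Slc35a2 had 0.09 and -1.29, and Slc44a4 had 0.68 and -0.09. Slc4a8 had -0.07 and 0.74, Slc25a11 had -0.12 and 0.61, and Slc25a17 had -0.10 and 0.76. The pooled differences of these genes given above average over this disagreement.

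**Figure D5:**
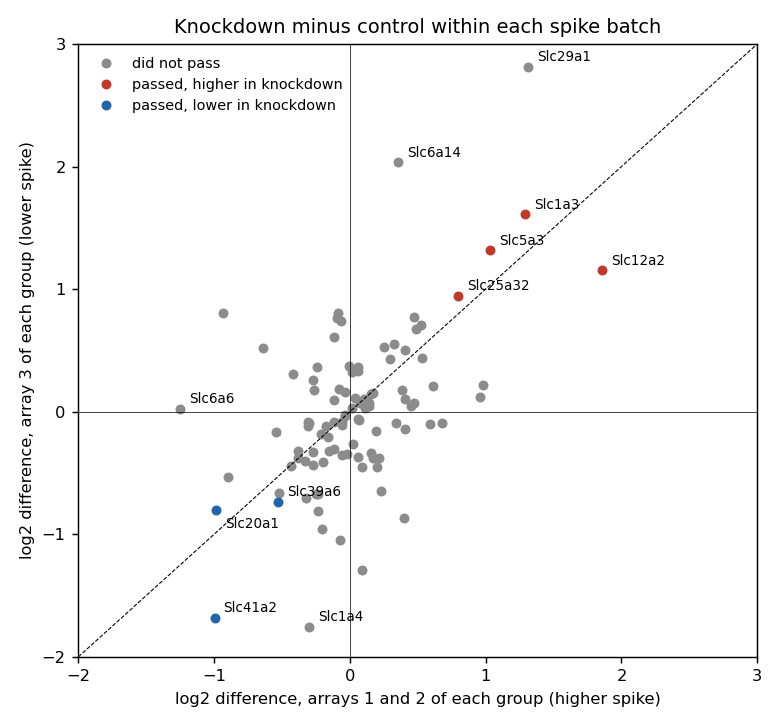
Log2 difference of each of the 100 genes between knockdown and control, for arrays 1 and 2 of each group on the horizontal axis and for array 3 of each group on the vertical axis, with a dashed line of equality. The 7 genes that passed keep their sign on both axes, while Slc6a6, Slc25a1 and Slc25a30 are among those that change sign between them. The test used these same arrays, so the agreement of the 7 genes is no separate support.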

How the data were processed

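The authors deposited 1 linear intensity per probe set and array for 45101 probe sets on Affymetrix mouse arrays. Per the labels' protocols, Trizol RNA was used and biotinylated cRNA was made from 8 µg of it. The submitters' processing notes list GCOS and PLIER without versions. How the authors normalized the arrays is not given here. The number of arrays limits the precision.

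From the deposited intensities, 64 control probe sets were left out, log2(intensity + 16) was quantile normalized, and each of 18193 genes with 1 symbol in the platform annotation was represented by its probe set of highest mean. All 100 members matched the mouse gene table of GRCm38.p6. Knockdown minus control was fitted in R 4.3.3 with limma 3.58.1 (lmFit, eBayes, Benjamini-Hochberg over all genes, threshold 0.05). The fit was tested on simulated data. Means ± SD are of deposited intensities, and folds are of normalized values, so they need not equal ratios of the intensities. An exact permutation test of 3 arrays against 3 cannot go below 0.1 and was not used.

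The members, lists and alternatives were chosen with earlier results of these data known. The naming rule takes the changed members, up to 3 per transporter group, the brightest, those at the level's edge and those with disagreeing probe sets. Other members are named after their values were seen.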

Additional observations from a re-analysis of the deposited data

How the results depend on the processing

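Each of the 100 genes was recomputed under 19 alternatives of normalization, offset, level filter, variance model, array weights, probe set choice, replicate block, spike batch, Gapdh ratio and left-out arrays. None of the 7 genes that passed changed sign. Slc12a2 passed in 18 of the 19, Slc1a3 in 17, Slc41a2 in 16, Slc20a1 in 15, Slc5a3 in 8, Slc25a32 in 6 and Slc39a6 in 4, with limma adjusted p of 0.000956 to 0.0897, 0.000652 to 0.0609, 0.00322 to 0.113, 0.00395 to 0.208, 0.00434 to 0.547, 0.0159 to 0.237 and 0.00487 to 0.272. All 7 passed together in 2 alternatives. A further 12 genes passed in at least 1, Slc29a1 in 6. Of the 93 that did not pass, 40 changed sign somewhere.

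The numbers of solute carrier genes that rose and fell were 4 and 3. They were 0 and 0 when limma's variance moderation was left out, where 11 and 8 had an unadjusted p under 0.05. They were 2 and 2 with no further normalization, 3 and 1 with an offset of 1, 12 and 4 with array weights, and 2 and 1 on the 4 arrays of higher spike signal. Leaving out 1 array gave 2 to 6 that rose and 1 to 3 that fell. They were 9 and 6 of 145 genes at a level of 25, 1 and 3 of 63 at 100, and 2 and 3 of the 93 with both group means at 50 or more. Shares over all genes chosen in these ways were not counted, so these counts have no background. Genes whose groups did not overlap numbered 24 higher and 6 lower with no further normalization, against 15 and 10. The matching shares of all genes were not counted under that setting, so a tilt of solute carriers cannot be read from it. Over all genes, 938 passed, 211 without moderation, 1615 with array weights and 359 on the higher spike arrays, and 436 to 817 with 1 array left out. The causes were not tested.

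The replicate numbers were not taken to pair the arrays, since the deviations of same-numbered arrays correlated by 0.34, 0.01 and 0.12. With the replicate number as a block, 4 solute carrier genes rose and 2 fell, and 712 genes passed in all. Of the 7, Slc39a6 lost its call with this block (0.0816), and Slc25a32 lost its call with the spike batch as a block (0.0541).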

Other observations

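Some solute carrier genes below the level of 50 also passed. Of the 217 genes below it, 9 (4.15%) passed the limma test, 6 higher and 3 lower, where 5.16% of all genes passed. That 5.16% is 938 of 18193 genes, and it includes the genes at 50 or more, of which 563 of 7315 (7.7%) passed. The remaining genes, below 50, thus passed less often than 5.16%. Whether the solute carriers below 50 exceed them was not tested. Their intensities were low, the added 16 understates their fold changes, and a gene of this kind was seen mainly in the group where it was high.

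Slc9a9, a sodium-proton exchanger of endosomes, rose, with 71.4, 84.9 and 59.6 in knockdown cells, against 14.2, 17.6 and 22.1 in control cells (log2 difference 1.33, limma adjusted p = 0.00633). Slc7a2, an importer of arginine and lysine, rose, with 78.2, 43.5 and 48.1 in knockdown cells, against 9.42, 14.02 and 6.28 in control cells (log2 difference 1.45, limma adjusted p = 0.0081), and its relative Slc7a1 is described above. Slc43a2, which carries large neutral amino acids, rose by 1.34, Slc1a5, the glutamine exchanger ASCT2, by 0.76, the sodium-calcium exchanger Slc8a1 by 0.83 and the zinc exporter Slc30a1 by 0.79, with limma adjusted p-values of 0.0454, 0.0411, 0.0491 and 0.0164. Lower were Slc9a2, a plasma membrane sodium-proton exchanger, with 9.63, 13.6 and 8.06 in knockdown cells, against 56.4, 37.8 and 36.1 in control cells (log2 difference -1.17, limma adjusted p = 0.00921), Slc27a3, of the fatty acid transport protein family, by 0.99, and the urea transporter Slc14a1, by 0.77 on the log2 scale. The limma adjusted p-values of Slc27a3 and Slc14a1 were 0.0083 and 0.0197. These 9 genes were named after their values were seen.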
